A study of Ipomoea batatas with 12 samples.

Results

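The genes described here are those whose identifiers carry the number 08 in sweetpotato (Ipomoea batatas) and whose counts summed to at least 10 over the 12 libraries of the study. Of 10585 identifiers with this number, 5213 met the rule, out of 117705 with at least 10 counts among 225111 in the whole table. Number 08 was singled out because its genes leaned towards flesh in these same libraries. The differences between skin and flesh are therefore given as a description, with no test. The comparisons of the mutant with the wild type did not enter the choice of number 08 and are tested.

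The libraries came from storage roots of the wild-type line M1-125 (WT) and of a natural mutant of it (MT), both field-grown and sampled 120 days after planting. Flesh and skin were collected from each, giving 4 groups of 3 libraries. All groups carried the treatment label normal, and neither the colour of the roots nor the nature of the mutation is stated in the labels. The replicates are called biological, but the labels do not tie them to separate plants. The p-values set a difference between groups against the spread of libraries within groups, estimated over all 4 groups. That spread may therefore be technical.

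In a storage root the skin is the periderm with its corky outer cells, and the flesh is mainly parenchyma that stores starch and storage proteins. Cultivated sweetpotato is hexaploid, so most genes are present as several similar copies, and the copies can differ in activity. The identifiers of number 08 end in a letter from A to F and a running number that rises in steps of 10. Here the number was read as a chromosome, the letter as one of its 6 copies and the order of running numbers as the order of genes on it. That reading is an assumption, because the table holds no coordinates. A gene is written below by its letter and running number, so that D 8380 is the gene with letter D and running number 8380.

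The table pairs no identifier with a gene name, and 0 of them occur among the 175826 genes of the reference table at hand, so roles are not given. For the same reason the labelled tissues could not be checked against marker genes. Near-identical copies on the 6 letters may share reads, so the division of counts between copies is uncertain for any single identifier. A lower level in skin can mean less RNA per cell or fewer cells that use the gene, and the 2 cannot be told apart in such samples.

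Total counts per library ran from 8507461 to 10715197 in MT skin, from 9620235 to 15065079 in WT skin, from 15893593 to 18258638 in MT flesh and from 17197979 to 20276417 in WT flesh, so that every skin library was shallower than every flesh library. At these depths 88.8 to 89.5% of the number 08 genes had at least 1 count in a WT flesh library, against 72.7 to 75.9% in an MT skin library. Of the 5213 genes, 3540 passed the low-count filter of the test. Of the identifiers outside the rule, 3944 had no count and 1428 had 1 to 9 counts. At the border of the rule, 75 genes had 10 counts and 88 had 9, with medians of 6 and 5 counts in flesh and 4 in skin in both cases, and none of them was tested.

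Expressed genes were not spread evenly along the running number. In the first 5000 running numbers 61.2% of identifiers had at least 10 counts, and in the next 5000 the share was 63.4%. It dropped to 34.8% between 10000 and 14999 and to 31.7% between 15000 and 19999, and was 45.7% from 20000 on, a range in which 144 of the 163 expressed genes carry the letter F. These values pool the letters, which differed. Between 15000 and 19999 the share was 51.3% on D, 48.1% on A, 32.7% on E, 25.4% on B, 24.2% on C and 16.7% on F. The letters themselves held similar numbers of expressed genes, from 796 on E to 945 on F. Expressed genes had a median length of 1626 bases and the rest of number 08 a median of 708 bases, against 1624 and 709 over the whole table.

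Number 08 took a larger share of the transcripts in flesh than in skin in both lines. Its genes held 4.37, 4.33 and 4.33% of the counts in the 3 WT flesh libraries and 4.001, 4.02 and 4.02% in MT flesh. In skin the values were 3.15, 3.15 and 3.13% for WT and 3.13, 3.12 and 3.15% for MT. All 6 flesh libraries lay above all 6 skin libraries, and the mean difference, skin minus flesh, was -1.19 percentage points in WT and -0.878 in MT. The WT flesh libraries also lay above the MT flesh libraries, with an MT minus WT difference of -0.329 points, whereas in skin the lines overlapped and the difference was -0.0132 points. Without the 10 most abundant genes of each library the difference was -0.162 points in flesh and -0.0533 in skin. In skin the lines then no longer overlapped (3.35 to 3.36% in WT and 3.29 to 3.32% in MT). In flesh the shares then were 4.26, 4.23 and 4.24% in WT and 4.13, 3.96 and 4.15% in MT. Those 10 genes were picked anew in each library and can differ between libraries, so these differences may not compare the same genes. Other numbers also held less in skin. Number 14 had a skin minus flesh difference of -1.14 points in WT and -0.718 in MT, number 05 of -1.12 and -0.958, and number 01 of -0.312 and -0.918. MT minus WT in flesh was -0.350 for number 14 and -0.323 for number 09.

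**Figure D1:**
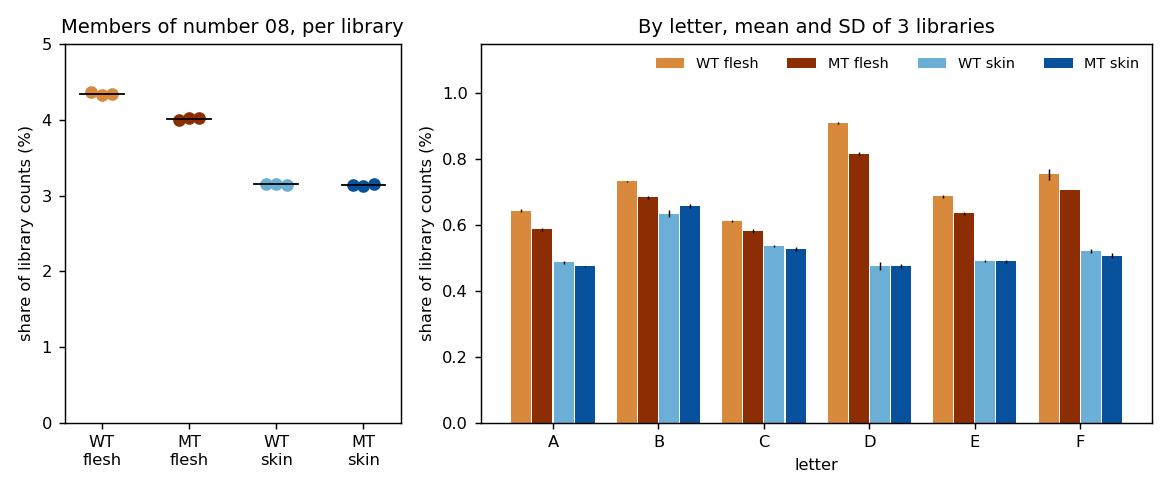
Share of each library's counts held by the number 08 genes (left, 1 point per library, line at the mean of 3) and split by letter (right, bars show the mean and error bars the SD of 3 libraries). All 6 flesh libraries lie between 4.001 and 4.37% and all 6 skin libraries between 3.12 and 3.15%, and letter D shows the widest gap between the tissues.

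Each of the 6 letters held a smaller share in skin than in flesh in both lines, with no overlap of libraries. Letter D was the most uneven: its share was 0.909% ± 0.00303 in WT flesh and 0.475% ± 0.0126 in WT skin (SD, n = 3), a ratio of 1.91. Letters B and C were the most even, with ratios of 1.16 and 1.14. In MT flesh every letter was below WT flesh with no overlap of libraries, and the difference ran from -0.0311 points on C to -0.0921 points on D. In skin the letters did not move alike: B was higher in MT by 0.0229 points, A, C and F were lower, with differences of -0.00965 to -0.0142 points, and D and E overlapped.

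The -1.19 points in WT were the balance of -2.28 points over 3216 genes with a lower share in skin and 1.08 points over 1988 genes with a higher one. The 10 genes with the largest loss from flesh to skin summed to -0.722 points. The most abundant gene of number 08, Ibat.Brg_v3.08DG008380 with 1620 bases, alone accounted for -0.223 points. Its level was 2043, 1961 and 1947 CPM (counts scaled to a common library size of 1e6 with TMM factors) in WT flesh and 1694, 1734 and 1665 in MT flesh, against 36.1, 44.6 and 41.7 in WT skin and 42.7, 45.4 and 35.5 in MT skin. Flesh was 48.6-fold above skin in WT and 41.2-fold in MT, and the tissues were far from overlapping.

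The second most abundant gene, Ibat.Brg_v3.08FG010370, has the same length of 1620 bases. It stood at 1139, 1099 and 1101 CPM in WT flesh and 19.5, 22.7 and 21.3 in WT skin, 52.5-fold apart, and at 1033, 1019 and 994 in MT flesh and 27.6, 21.3 and 25.3 in MT skin. That shared length prompted a look, after the values were seen, at every identifier of number 08 with 1620 bases, of which there are 6.

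Of these 6 genes, 5 lay on 5 different letters and were far higher in flesh than in skin, at very different levels. A 8750 was at 328, 306 and 305 CPM in WT flesh and 4.42, 4.56 and 3.82 in WT skin, and C 8950 at 352, 358 and 358 against 5.39, 14.5 and 6.49. B 8150 was the weakest, at 36.3, 28.2 and 32.7 CPM in WT flesh and 0.539, 0.441 and 0.116 in WT skin. Since all have one length, their levels compare per length as well: mean WT flesh values were 1224 CPM per kilobase on D, 687 on F, 220 on C, 193 on A and 19.99 on B. No libraries of neighbouring letters overlapped in WT flesh in that order. The sixth gene of this length, A 7710, stayed between 0.588 and 0.86 CPM in WT with a mean 1.26-fold higher in flesh.

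Together the 5 genes held 0.434% of the counts in WT flesh, 0.358% in MT flesh, 0.00682% in WT skin and 0.00733% in MT skin. Their summed difference equalled 35.8% of the net difference in share between skin and flesh in WT and 40.0% in MT. Letter E has no gene of this length. E 8740, with 1927 bases, was taken from the 10 genes with the largest loss in share from flesh to skin in WT. Its lean to flesh therefore follows from that choice. It was at 339, 295 and 294 CPM in WT flesh and 8.41, 4.56 and 14.1 in WT skin. Whether these genes are copies of one another could not be settled without sequence.

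**Figure D2:**
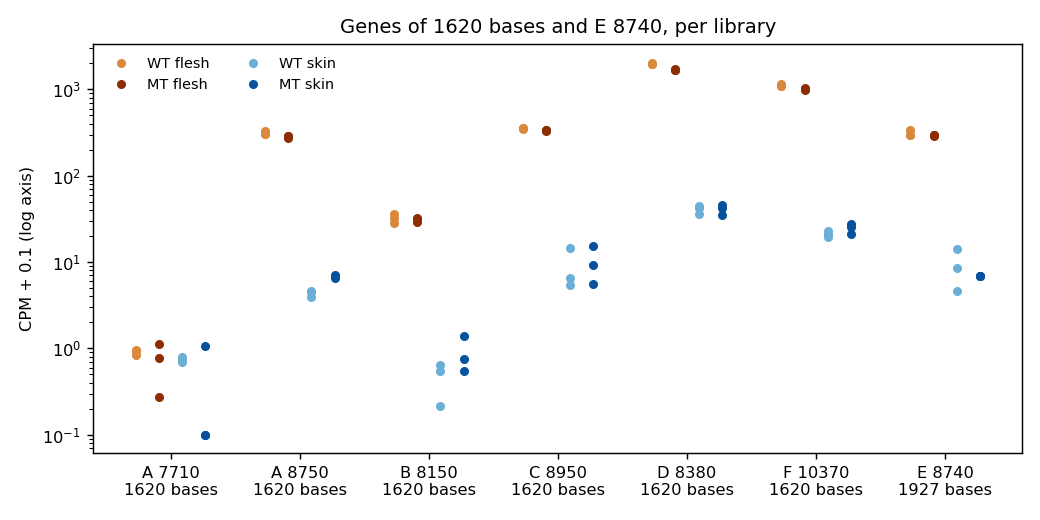
Level of the 6 genes of 1620 bases and of E 8740 in each library (CPM + 0.1, log axis; 1 point per library, 4 groups by colour). In every gene but A 7710 mean flesh lies 33.9-fold to 88.6-fold above mean skin, whereas A 7710 stays between 0 and 1.04 CPM.

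Between the lines none of the 6 genes of 1620 bases passed the test in flesh: D 8380 had a log2 fold change of -0.22 (SE 0.07) and an edgeR quasi-likelihood adjusted p of 0.121. In skin A 8750 rose in MT, from 4.42, 4.56 and 3.82 CPM to 6.86, 6.46 and 7.01, with no overlap (log2 fold change 0.65, edgeR adjusted p = 0.00384). The genotype difference of A 8750 also differed between the tissues (edgeR interaction, adjusted p = 0.000894).

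The median over genes leaned to flesh too, but the shift was small. In WT 44.1% of the 5213 genes had a higher mean log2 CPM in skin, against 48.4% of all genes. In MT the shares were 40.4% and 44.9%. The median difference between skin and flesh was -0.17 log2 CPM in WT and -0.27 in MT over the 5213 genes, against -0.04 and -0.14 over all genes of the table. Relative to all genes the lean was thus -0.13 in both lines, and by letter it ran from -0.09 on F to -0.21 on E in WT. Scaling by library totals moved the median of all genes by more than 0.1, to -0.28 in WT, but left the lean relative to all genes at -0.13 in WT and -0.14 in MT. Number 14, with -0.13 and -0.12, was the only other number of the 15 that stood as low.

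Genes at least 2-fold apart whose skin and flesh libraries did not overlap were counted in each line. In WT 707 of the 5213 were higher in flesh (13.6%) and 670 in skin (12.9%), where over all genes the shares were 12% and 14.9%. In MT 799 were higher in flesh (15.3%) and 607 in skin (11.6%), where over all genes the shares were 13% and 13.8%. Scaled by library totals alone, the counts were 973 in flesh and 557 in skin in WT and 993 and 483 in MT. In both lines at once 544 were higher in flesh and 462 in skin, while 3 changed sides. Over all genes with at least 10 counts, 8.66% were higher in flesh in both lines and 10.8% in skin, against 10.4% and 8.86% here.

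The 544 flesh genes held 1.53% of the counts in flesh and 0.173% in skin, while the 462 skin genes held 0.233% and 1.12%. Flesh genes were somewhat more common in the first 2 bins of 5000 running numbers, at 11.95 and 11.6%, than in the next 2, at 7.10 and 7.50%, and made up 11.0% of the 163 genes from 20000 on. Skin genes did not thin out in the same way, at 8.26, 9.63, 7.57, 10 and 8.59% over the 5 bins. When the genes were split by length into 4 equal classes, the longest class, from 2406 to 13494 bases, had a median skin minus flesh difference of -0.31 log2 in WT, against -0.10 to -0.15 in the other 3 classes.

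In bins of 5000 running numbers the median skin minus flesh difference lay between -0.21 (from 20000 on) and -0.13 (from 10000) in WT and between -0.35 (0 to 4999) and -0.18 (from 20000 on) in MT, all below 0. The order of these bins was not stable: without WT flesh replicate 3 the bin from 20000 on was the highest in WT. In bins of 2500 the median of all letters together ran from -0.26 (20000 to 22499) to -0.0041 (5000 to 7499) in WT and from -0.40 (0 to 2499) to -0.10 (17500 to 19999) in MT. Per letter the lowest 5000-wide bin with at least 20 members was D 15000 to 19999 in WT, at -0.35, and A 0 to 4999 in MT, at -0.43. The highest were A 10000 to 14999 in WT, at 0.05, and C 15000 to 19999 in MT, at 0.02. With bins of 2500 the highest place was F 15000 to 17499, where 28 genes of 210 identifiers had a median of 0.77 in WT and 1.33 in MT, and 16 of them were tested. Next came D 17500 to 19999 with 23 genes and medians of 0.46 and 0.19, and in WT C 17500 to 19999 with 27 genes and a median of 0.39.

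**Figure D3:**
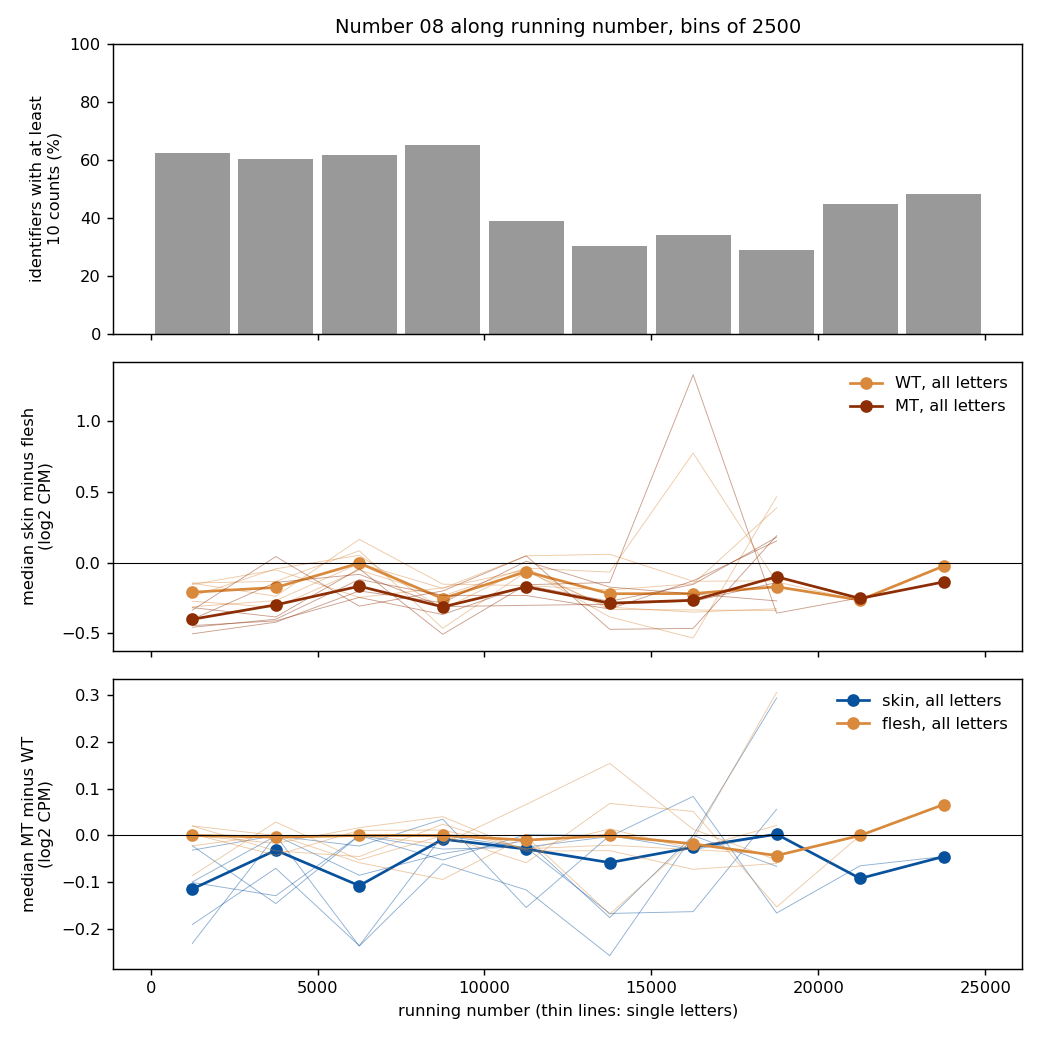
Number 08 along its running number in bins of 2500 with at least 20 members: share of identifiers with at least 10 counts (top), median skin minus flesh difference per line (middle) and median MT minus WT difference per tissue (bottom). Thick lines show all letters together and thin lines single letters; the top panel falls from 65.3% to 39.0% at 10000, and the highest point of the middle panel is letter F at 15000 to 17499.

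Part of the place on F is a set of lengths that recurs. The lengths 423 and 216, 1 length that varies, and 735 and 774 bases stood in this order at A 17100 to 17140, A 17240 to 17280, F 14980 to 15020 and F 15780 to 15820. In each set the 4 outer genes were higher in skin than in flesh and the gene between them had at most 3 counts. A 17140, of 774 bases, was at 3.45, 2.94 and 1.51 CPM in WT skin and 4.39, 10.2 and 8.60 in MT skin, and its flesh values were at most 0.651. Of the 16 outer genes, 4 rose in MT skin by edgeR: A 17140, A 17240, A 17280 and F 15790, with adjusted p from 0.0233 to 0.0488. Over all tested genes 3.64% were higher in MT skin. Genes of the same length in these sets may share reads, so the 4 calls may not be separate observations. These counts were low, with 44 to 525 in all 12 libraries together, and the set was noticed after the values were seen.

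The genes with the widest gap between the tissues were few. The 2 that leaned most to skin were Ibat.Brg_v3.08EG003620 and Ibat.Brg_v3.08CG005200. Ibat.Brg_v3.08EG003620 had no count in WT flesh and 164, 169 and 182 CPM in WT skin, at least 3676-fold higher against 3 counts over the group. Ibat.Brg_v3.08CG005200 had none in WT flesh and 40.9, 45.2 and 46.9 CPM in WT skin, at least 949-fold higher. The 2 that leaned most to flesh were Ibat.Brg_v3.08DG004370, at 106, 108 and 106 CPM in WT flesh and 0, 0.441 and 0.232 in WT skin, and Ibat.Brg_v3.08EG006700. The latter was at 24.2, 25.4 and 29.1 CPM in MT flesh and had no count in MT skin, at least 225-fold lower.

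In flesh, 122 of the 3540 tested genes differed between MT and WT (3.45%), where 4.96% of all tested genes did. Of the 122, 81 were higher in MT and 41 lower, where 3.75% of all tested genes were higher and 1.21% lower. Scaled by library totals alone, 63 were higher and 58 lower. Leaving out any 1 of the 6 flesh libraries gave 78 to 91 genes, of which 18 to 27 were lower, with 79 without WT flesh replicate 2 and 78 without WT flesh replicate 3. DESeq2 called 205, edgeR without the low-count filter 184 and edgeR on the flesh libraries alone 204. The change was at least 4-fold upward in 23 genes (0.65% of those tested, against 1.13% of all tested genes) and downward in 7 (0.198% against 0.192%).

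Of these 23 genes, 12 lay in one stretch of the running number that recurred on 5 of the 6 letters. The stretch was noticed after the values were seen. It is marked on every letter by a gene of 1356 bases, at A 5310, B 5480, C 5580, D 4740, E 5310 and F 6470, and none of these 6 genes passed the test in MT flesh, the one on A having too few counts to be tested. Number 08 holds 12 identifiers of 1356 bases in all, and those 6 were picked by their place.

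The gene 20 running numbers behind the marker was nearly silent in WT flesh and active in MT flesh on letters B to F. On D it was the gene with the largest rise of number 08, Ibat.Brg_v3.08DG004760: 0.303, 0.217 and 0.281 CPM in WT flesh became 58.5, 31.0 and 43.5 in MT flesh. In skin it was at 37.3, 36.8 and 38.2 CPM in WT and 41.9, 53.2 and 39.7 in MT. WT flesh was thus the one group apart, and MT flesh overlapped both skins. The rise in flesh was 166-fold (log2 fold change 7.34, SE 0.29, edgeR adjusted p = 5.00e-10), and in skin the edgeR adjusted p was 0.453.

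On C the corresponding gene, Ibat.Brg_v3.08CG005600, ranked next among genes whose log2 CPM averaged 1 or more. It had 0.253, 0.607 and 0.187 CPM in WT flesh and 34.8, 28.9 and 32.0 in MT flesh, against 44.3, 38.3 and 49.0 in WT skin and 52.4, 56.4 and 49.1 in MT skin. Its rise in flesh was 91.5-fold (log2 fold change 6.45, SE 0.23, edgeR adjusted p = 1.57e-10), and MT flesh stayed below both skins.

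On E the gene at this place, E 5330, went from 0.759, 0.260 and 0.421 CPM in WT flesh to 30.1, 25.9 and 26.8 in MT flesh, a 57.4-fold rise (edgeR adjusted p = 5.36e-10). On B the gene was B 5500, with 0.405, 0 and 0.375 CPM in WT flesh and 17.1, 15.3 and 15.4 in MT flesh, a 61.3-fold rise (edgeR adjusted p = 6.90e-07), and its skin libraries, at 8.02 to 13.9 CPM, all lay below MT flesh. On F the gene F 6490 was weak: 1 count in WT flesh and 78 in MT flesh, a depth-scaled ratio of 89.9 with an exact 95% interval of 15.7 to 3598 that covers counting error only. Its MT flesh values were 0.623, 2.05 and 1.54 CPM, its WT skin values 1.19, 1.398 and 1.04 (edgeR adjusted p = 0.000272). A 5330, at the same distance on A, had 0, 0 and 0.375 CPM in WT flesh and 0.467, 0.359 and 0.592 in MT flesh, too few counts to be tested.

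The remaining 7 of the 12 lay next to these genes. A gene of 2466 to 2545 bases, 40 or 50 running numbers behind the marker, rose on each of the letters B to F: B 5530, C 5620, D 4790, E 5360 and F 6520. D 4790 was the strongest, with 0.405, 0.607 and 0.281 CPM in WT flesh and 3.69, 2.30 and 4.44 in MT flesh, and edgeR adjusted p over the 5 ran from 0.000236 to 0.0478. On E the neighbours E 5320 and E 5340 rose as well, so that E 5320 to E 5360 formed the longest run of neighbouring tested genes that changed alike in number 08, with 4 genes. None of the 12 changed in skin at adjusted p under 0.05 in edgeR, and the genotype difference differed between the tissues in 9 of them. The 12 were picked by their rise in flesh, which is part of that interaction, so these 9 calls partly follow from the choice. Over the 12 the mean in MT flesh was 59.1 to 208.1% of that in WT skin.

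The next genes did not share the rise. C 5630 and C 5640, at 23.2 to 38.1 CPM in flesh, and D 4800 did not pass the test in flesh, with edgeR adjusted p of 0.207, 0.263 and 0.104. The 11 remaining genes with a rise of at least 4-fold were spread over the number. Among them were C 3960 and D 3290, of 946 and 965 bases, each directly behind a neighbour that also rose. C 3960 went from 1.31, 2.47 and 2.34 CPM in WT flesh to 15.2, 14.9 and 14.8 in MT flesh, close to its 14.3, 13.8 and 12.3 in WT skin. B 18230 rose from 2 counts to 203 in flesh, a depth-scaled ratio of 117 with an exact 95% interval of 32.0 to 973 (edgeR adjusted p = 0.000155). Its MT flesh values of 4.10, 3.53 and 3.26 CPM lay above all skin libraries.

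**Figure D4:**
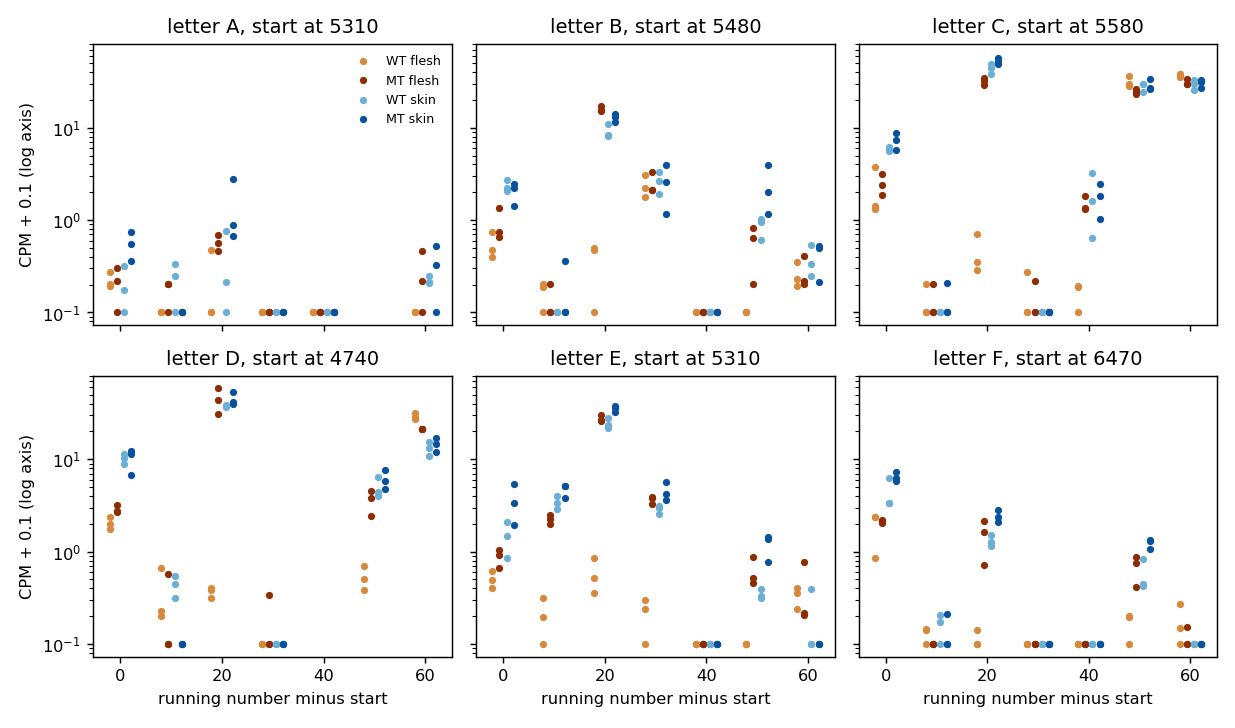
Level of the genes in the stretch on each letter, by distance in running number from the marker gene of 1356 bases at 0 (CPM + 0.1, log axis; 1 point per library, small sideways shifts part the groups). At 20 the WT flesh points lie at or below 1 CPM on letters B to F, while MT flesh lies far above WT flesh on these letters, below every skin point on C and above every skin point on B; on A all points are low.

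The largest falls in MT flesh were those of a pair of genes on A and E. Ibat.Brg_v3.08AG015460 went from 42.9, 47.0 and 47.6 CPM in WT flesh to 3.17, 2.10 and 3.91 in MT flesh, 15.0-fold lower (log2 fold change -3.91, SE 0.24, edgeR adjusted p = 6.21e-08). Ibat.Brg_v3.08EG016270 went from 65.3, 63.1 and 59.7 to 4.05, 5.68 and 4.80 CPM, 13.0-fold lower (log2 fold change -3.69, SE 0.20, edgeR adjusted p = 2.12e-08). Both were also lower in MT skin, at 5.14, 2.49 and 3.57 against 18.3, 25.2 and 23.8 CPM for the first and 9.32, 4.30 and 7.01 against 24.9, 30.4 and 32.2 CPM for the second. Neither pair of groups overlapped, and for both the fall was larger in flesh than in skin (edgeR interaction, adjusted p = 0.0387 and 0.00397).

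Counted over both tissues, 9 genes fell in both (0.235% of all tested genes did), 12 rose in both (1.1%) and 14 changed in opposite directions (0.407%). Next to Ibat.Brg_v3.08EG016270, Ibat.Brg_v3.08EG016260 fell in both too, from 20.2, 21.5 and 16.7 to 1.14, 2.25 and 3.14 CPM in flesh and from 5.61, 5.30 and 4.17 to 0.536, 0.226 and 0.926 in skin. F 21360 and D 16600 were further members of this group, 6.65-fold and 3.93-fold lower in flesh and 7.63-fold and 2.14-fold lower in skin. Of the 9 genes, 6 had running numbers above 15000. Of the 3540 tested genes, 443 lay between 15000 and 19999 and 106 from 20000 on. The place was noticed after the values were seen.

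The gene with the highest level in the group was D 10750. It stood at 898, 877 and 830 CPM in WT flesh and 468, 491 and 470 in MT flesh, and at 29.9, 44.1 and 34.5 in WT skin and 19.7, 20.05 and 22.5 in MT skin. The fall was 1.82-fold in flesh and 1.74-fold in skin (edgeR adjusted p = 3.80e-05 and 0.000535). D 10750 contributed -0.0485 points to the net difference of -0.329 between MT and WT flesh in the share of number 08, more than any other gene. The 10 genes with the largest losses summed to -0.179 points, and all genes that were lower to -0.607.

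Among the 12 that rose in both, D 3860 was the most abundant: 271, 305 and 308 CPM in WT flesh against 602, 509 and 527 in MT flesh, and 96.1, 67.2 and 53.8 in WT skin against 125, 123 and 143 in MT skin. D 17510 rose 3.26-fold in flesh and 1.48-fold in skin, and the difference between these was itself significant (edgeR interaction, adjusted p = 0.000423).

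In 9 of the 14 opposite genes the level was lower in MT skin and higher in MT flesh, as in 228 of the 327 opposite genes of the whole table. Of the 9 genes, 4 lay at matching places. A 5850, B 6020 and C 6120 stand 540 running numbers behind the marker gene of 1356 bases, F 7030 stands 560 behind it, and all have 1005 to 1223 bases. None of the 4 lies on D or E, and the place was noticed after the values were seen. F 7030 was at 18.5, 17.9 and 16.6 CPM in WT flesh and 30.5, 32.4 and 34.5 in MT flesh, and at 129, 135 and 120 in WT skin and 70.6, 75.3 and 70.4 in MT skin. C 6120 had 23.2, 22.7 and 22.4 CPM in WT flesh and 39.3, 42.0 and 49.97 in MT flesh, and 135, 156 and 136 in WT skin and 101, 112 and 109 in MT skin. Over the 4 genes the rise in flesh was 1.63-fold to 1.95-fold and the fall in skin 1.33-fold to 1.77-fold, all with edgeR adjusted p under 0.05 and interaction values of at most 0.000581. All 4 genes were higher in skin than in flesh in both lines, without overlap of libraries.

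The reverse pattern, lower in MT flesh and higher in MT skin, was seen in 5 genes, A 10930 and F 22640 among them, and in 99 of the 327 opposite genes of the whole table. A 10930, a flesh gene with 367, 382 and 364 CPM in WT flesh, fell to 226, 249 and 241 in MT flesh and rose from 4.10, 4.93 and 4.87 to 5.57, 9.06 and 8.07 in skin. Ibat.Brg_v3.08CG001090 was a skin gene, at 25.7, 31.0 and 41.5 CPM in WT skin and 47.2, 60.7 and 51.9 in MT skin. In flesh it had 24 counts in WT and 2 in MT, a depth-scaled ratio of 10.4 with an exact 95% interval of 2.58 to 90.8. Its difference between the tissues was 3.81 on the log2 scale (edgeR interaction, adjusted p = 0.00828), and 6.17 without MT flesh replicate 1, which held both MT flesh counts.

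**Figure D5:**
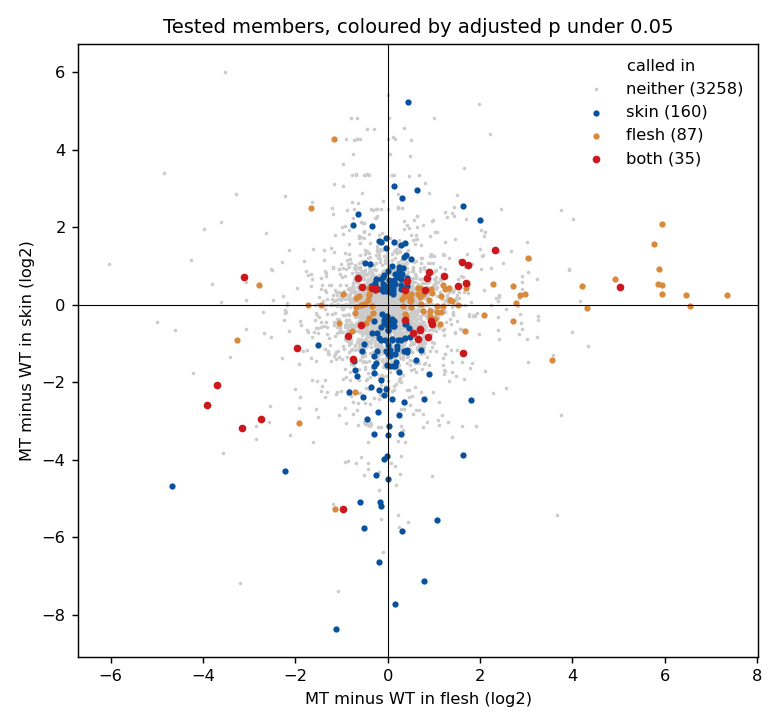
MT minus WT difference in flesh (horizontal) and in skin (vertical) for the 3540 tested genes of number 08, on the log2 scale, coloured by edgeR adjusted p under 0.05. Of the genes called, 160 differ in skin alone, 87 in flesh alone and 35 in both. Over all 80351 tested genes 4099 differ in skin alone and 2582 in flesh alone. In both tissues 887 of these are higher, 189 lower and 327 opposite. D 4760, C 5600, B 5500 and E 5330 lie far to the right, at 5.85 to 7.34, with skin differences of 0.26 to 0.53.

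In skin 195 of the 3540 tested genes differed between MT and WT (5.51%), where 6.85% of all tested genes did. Here 78 were higher in MT and 117 lower, where 3.64% of all tested genes were higher and 3.21% lower. Scaled by library totals alone, 54 were higher and 137 lower. Changes of at least 4-fold were mostly falls, 39 (1.10% of those tested) against 9 (0.254%). The same held over all tested genes, where 0.872% fell and 0.312% rose this far. Of the 117 lower genes, whatever the size of the fall, 17 had at most 3 counts in the MT skin libraries together. Of the 2579 lower genes among all those tested, 278 had as few. MT skin had the lowest depth of the groups, and its part in these calls was not tested. When WT skin replicate 2, the skin library with the highest depth, was left out, 110 genes were called, 42 of them higher, and 127 were called without WT skin replicate 3. DESeq2 called 332.

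Among genes whose log2 CPM averaged 1 or more, the largest rises in skin were those of a pair of flesh genes with low levels in skin. Ibat.Brg_v3.08DG003690, a flesh gene at 111, 119 and 121 CPM in WT flesh, went from 0.431, 0.294 and 0.232 CPM in WT skin to 3.86, 1.13 and 3.18 in MT skin, 8.53-fold higher (log2 fold change 3.07, SE 0.44, edgeR adjusted p = 0.000613). Ibat.Brg_v3.08DG001180 had no count in WT skin and 2, 4 and 2 counts in MT skin, at least 3.26-fold higher (edgeR adjusted p = 0.0110). That call was lost without MT skin replicate 2 and without WT skin replicate 2, with edgeR adjusted p of 0.0628 and 0.0689. Ibat.Brg_v3.08DG001180 met the limit on level and the low-count filter through flesh, where it was at 19.1 to 30.3 CPM. In the fit on skin libraries alone it fell below the filter and was not tested. Among the falls, under the same limit on level, Ibat.Brg_v3.08CG002020 was uneven in WT skin, with 23.5, 4.27 and 32.0 CPM against 2.14, 1.81 and 2.91 in MT skin (log2 fold change -3.12, SE 0.55, edgeR adjusted p = 0.00308). Ibat.Brg_v3.08EG016260, described above, was 8.93-fold lower.

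Between letters the called shares ran from 4.43% on B to 6.60% on D in skin and from 2.61% on A to 4.57% on E in flesh. Letter A was the only one with more falls than rises in flesh, 9 against 7. The genotype difference differed between the tissues in 134 genes (3.79%), where 4.55% of all tested genes did, and DESeq2 gave 207. Without the low-count filter edgeR gave 202 (3.87%, against 3.45% of all tested genes). In 90 of the 134 the difference was more positive in flesh than in skin and in 44 the other way round (24 to 43 with 1 library left out). The shares over all tested genes were 3.08% and 1.46%. Letter E was the most one-sided, with 23 against 4.

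Possible copies on different letters were sought by their order alone, as 3 neighbouring identifiers with the same 3 lengths on 2 letters. This gave 228 pairs, of which 31 had both genes expressed, 33 had one and 164 had neither. Of the 31 pairs, 14 belong to the recurring set of lengths described above on A and F or to a part of it on C, and all 14 were higher in skin in both lines. Across all 31 pairs r between the skin minus flesh differences of the paired genes was 0.83 in WT and 0.74 in MT, and 25 pairs in WT and 24 in MT shared a sign. In the other 17 pairs r was 0.53 in WT and -0.24 in MT, with a shared sign in 11 and 10. Of the 15 pairs in which both genes were tested, 12 belong to the recurring set. For the MT minus WT difference r across the 31 pairs was 0.32 in skin and -0.13 in flesh, and -0.28 and -0.20 in the other 17. Pairs share libraries and may share reads and are not independent, so these values are a description, and the split was made after the values were seen.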

How the data were processed

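RNA from flesh and skin of storage roots was depleted of ribosomal RNA and sequenced, per the labels' protocols. The deposited table holds raw counts per identifier for the 12 libraries, per the file headers. The submitters' processing notes name HISAT2 2.0.5, featureCounts and DESeq2 1.40.2. The sources used here name neither the build and annotation used nor the strand setting, nor how reads that fit several copies were treated.

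Members were identifiers of number 08 with at least 10 summed counts. The members and lists were chosen with earlier results of these data known. Levels are CPM with TMM scaling, and medians use log2 CPM with a prior count of 2. Mutant and wild type were compared over the whole table, all 4 groups in 1 fit, with edgeR 4.0.16 in R 4.3.3 (quasi-likelihood test, low-count filter with a minimum of 10, Benjamini-Hochberg adjusted p under 0.05). SE is the log2 fold change divided by the root of F, an approximation. Bounds against groups with no count use 3 counts over the group, and 3 counts equal 0.130 to 0.397 CPM in a library. Genes given with full identifiers were the 2 most extreme in each direction of a comparison, among those whose log2 CPM averaged 1 or more and, except for the interaction, non-overlapping libraries, and the 2 most abundant. Genes given by letter and running number were chosen after their values were seen. Alternatives were other scalings, DESeq2 1.42.0, other filters and leaving out each library. The scripts were tested on simulated data.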

Additional observations from a re-analysis of the deposited data

Results flagged for a closer look

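By the interaction in edgeR the MT minus WT difference differed between skin and flesh in 134 genes. The 10 given here are those among the genes with full identifiers or of 1620 bases, partly picked by these same differences. Values are skin minus flesh on the log2 scale. Groups of 3 libraries are too small for a check of single outlying libraries. In the stretch that was active in MT flesh, the interaction was -7.08 for Ibat.Brg_v3.08DG004760 and -6.18 for Ibat.Brg_v3.08CG005600. Ibat.Brg_v3.08EG003620, a skin gene with 15 counts in MT flesh and none in WT flesh, had -4.58. Ibat.Brg_v3.08CG002020, lower in MT skin alone, had -3.15. Ibat.Brg_v3.08DG001180 had 4.81 from 8 counts in MT skin, a call lost with DESeq2 (adjusted p = 0.0557) and in 5 fits with 1 library left out (up to 0.145), and Ibat.Brg_v3.08DG003690 had 2.94. Ibat.Brg_v3.08CG001090 had 3.81, which rests on 2 counts in MT flesh. Both genes with the largest falls in flesh fell less in skin, by an interaction of 1.33 for Ibat.Brg_v3.08AG015460 and 1.61 for Ibat.Brg_v3.08EG016270. Ibat.Brg_v3.08AG008750, of 1620 bases and chosen after its values were seen, had 0.79.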

How the results depend on the processing

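No median, share difference or gene result changed sign under any alternative run, although the median MT minus WT difference in flesh reached 0, and counts of genes called moved. With DESeq2, 332 genes differed in skin, 205 in flesh and 207 in the interaction, and with the 6 flesh libraries alone 204 differed in flesh. Without the low-count filter 285 differed in skin, 184 in flesh and 202 in the interaction. In that run the called share was above that of all tested genes in skin (5.47% against 4.86%) and in the interaction (3.87% against 3.45%). In flesh it was below (3.53% against 3.74%). The median MT minus WT difference was near 0 and followed the settings. It was -0.0642 in skin and -0.0069 in flesh with a prior count of 0.5, -0.0771 and -0.089 with library totals, -0.0314 and 0 with RLE scaling, and -0.0566 and -0.0123 for genes with at least 100 counts. The skin minus flesh medians were -0.256 in WT and -0.406 in MT with a prior count of 0.5 and -0.408 and -0.453 with library totals. The span between the highest and lowest bin median was 0.118 in WT for genes with at least 100 counts, and 0.261 in WT and 0.300 in MT with bins of 2500. Without the 10 most abundant genes of each library the share differed by -0.886 points between skin and flesh in WT, -0.778 in MT, and by -0.0533 between MT and WT in skin and -0.162 in flesh. Those 10 genes were picked per library and can differ between libraries. Of the 31 pairs of possible copies, 17 lie outside the recurring set of lengths, a split added after seeing the data. The cause of these shifts was not tested.

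Leaving out 1 library at a time gave 110 to 178 genes in skin, 78 to 126 in flesh and 93 to 119 in the interaction. The lowest values came without WT skin replicate 2 and without WT flesh replicate 3, and 79 were called in flesh without WT flesh replicate 2. Skin minus flesh medians ran from -0.231 to -0.157 in WT and from -0.282 to -0.270 in MT, and MT minus WT medians from -0.0565 to -0.0021 in skin and from -0.0063 to 0 in flesh. The span over bins ran from 0.0758 to 0.115 in WT and 0.107 to 0.189 in MT. In WT the highest bin began at 10000 and the lowest at 20000, but without WT flesh replicate 3 the highest began at 20000 and the lowest at 0. In MT the highest moved from 20000 to 5000, 10000 or 15000, while the lowest began at 0 throughout. Share differences ran from -1.20 to -1.18 and from -0.886 to -0.871 between tissues, from -0.338 to -0.317 in flesh and from -0.0204 to -0.0058 in skin.

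Same-numbered libraries did not deviate together: over 18 pairs the correlation ran from -0.0171 to 0.0146, 0 pairs exceeded 0.1, and in 6 of 18 the own number correlated best. With the replicate number as a block 135 genes were called in skin, 102 in flesh and 103 in the interaction. Of 211 alternatives run on 12 gene results, 203 kept the call and 8 lost it, all for Ibat.Brg_v3.08DG001180. The fit on skin libraries alone gave it no value, because it fell below the filter. Low skin depth limits genes near 3 counts.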
